A study of Mus musculus with 14 samples.

Results

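The 1012 sites described here are H3K27ac sites at the promoters of intergenic long non-coding RNA (lncRNA) genes in immortalised mouse embryo fibroblasts (iMEF). They were taken from a list of 122228 sites, of which they made up 0.828%. A site was chosen if its middle lay within 1 kb of a transcription start site (TSS) of a lincRNA gene, outside the body of every protein-coding gene and over 5 kb from every protein-coding TSS. The choice rested on positions and on the gene annotation (GENCODE M21, mm10), not on any measured signal. Of the 1494 sites within 1 kb of a lincRNA TSS, 264 lay in a coding gene body and were left out, and 218 more had a coding TSS within 5 kb.

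The study asked how chromatin responds to the rapid loss of ASH2L, a core subunit of the KMT2 enzyme complexes, writers of methyl marks on lysine 4 of H3. Chromatin immunoprecipitation followed by sequencing (ChIP-seq) with an antibody against H3K27ac, the acetylation of lysine 27 of histone H3, gave 12 libraries, 2 each from control cells and from cells after 30 min and 2, 4, 8 and 16 h of dTAG-13. Another 2 libraries were input chromatin, 1 from control cells and 1 after 16 h. All cells, control cells included, came from the clone NG3, in which exon 4 of the endogenous floxed Ash2l alleles was deleted and human ASH2L fused to FKBP12F36V was expressed from a lentiviral construct, so dTAG-13 degrades the fusion protein. The sites of all samples were joined into 1 list that gave the positions of each site and no value for any sample. Accordingly, no read depth, no replicate error and no change over time can be given for any site, and a site may come from any of the samples.

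Long non-coding RNA genes are transcribed by RNA polymerase II but encode no known protein. Their promoters carry the same active marks as those of coding genes, among them H3K27ac, which also marks enhancers. Many coding promoters lie in CpG islands (CGIs), stretches rich in CpG dinucleotides that escape DNA methylation, whereas most enhancers are poor in CpG. Other kinds of site from the same list serve for comparison below. Coding promoter sites (n = 19329) had their middle within 1 kb of a TSS of a protein-coding gene. Distal intergenic sites (n = 37711) lay outside coding gene bodies, over 5 kb from coding TSSs and over 1 kb from any annotated TSS.

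The sequences below show how widely the sites differ in CpG content. Each is 200 bp around the middle of a site, read from GRCm38.p6 5′ to 3′ on the strand of the lncRNA gene, with CpGs in capitals. Mir17hg (chr14:115041874-115042073, plus strand), the host gene of a microRNA cluster that promotes proliferation, had 33 CpGs and a GC content of 83.5%. Gm26651 (chr13:51972173-51972372, plus strand), whose site was among the widest, had 1 CpG. Gm11216 (chr4:64074862-64075061, plus strand), upstream of the matrix gene Tnc, had 0.
Mir17hg: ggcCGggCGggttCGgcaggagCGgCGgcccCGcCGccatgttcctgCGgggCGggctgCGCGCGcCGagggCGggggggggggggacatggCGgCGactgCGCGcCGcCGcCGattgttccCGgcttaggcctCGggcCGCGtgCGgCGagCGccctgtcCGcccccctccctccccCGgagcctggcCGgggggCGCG
Gm26651: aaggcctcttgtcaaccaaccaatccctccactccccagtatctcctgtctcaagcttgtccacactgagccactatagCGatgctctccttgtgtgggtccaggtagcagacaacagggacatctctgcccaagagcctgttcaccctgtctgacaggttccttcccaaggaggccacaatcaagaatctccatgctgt
Gm11216: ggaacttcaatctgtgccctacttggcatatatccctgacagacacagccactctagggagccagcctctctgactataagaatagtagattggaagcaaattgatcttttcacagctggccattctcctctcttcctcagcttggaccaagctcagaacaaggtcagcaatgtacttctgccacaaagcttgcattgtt

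The next sequences are shown because they hold the AP-1 motif TGANTCA, which was found less often at coding promoter sites. Each is 100 bp around the motif, whose matches are in capitals. Gm14005 (chr2:128429300-128429399, minus strand), also known as Morrbid, and Gm8883 (chr1:71887964-71888063, plus strand), whose nearest coding gene encodes fibronectin, are followed by Gm13470 (chr2:46443192-46443291, minus strand), which lay farthest from any coding TSS among the genes with a site. Gm8883 held 2 matches and each of the other windows 1. Gm8883 was chosen after the motif matches were seen.
Gm14005: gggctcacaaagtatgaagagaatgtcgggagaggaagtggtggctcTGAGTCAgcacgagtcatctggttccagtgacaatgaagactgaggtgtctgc
Gm8883: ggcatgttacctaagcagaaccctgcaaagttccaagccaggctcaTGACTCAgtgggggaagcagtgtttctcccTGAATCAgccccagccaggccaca
Gm13470: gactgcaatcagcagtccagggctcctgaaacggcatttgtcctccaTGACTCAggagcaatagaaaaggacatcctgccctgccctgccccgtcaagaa

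Sites at intergenic lncRNA promoters were narrower than sites at coding promoters and wider than distal intergenic sites. Their widths had a median of 464.5 bp and quartiles of 297 and 913 bp, compared to medians of 740 bp at coding promoters and 368 bp at distal intergenic sites. Sites of exactly 200 bp, the lower limit of the list, made up 3.66% of the lncRNA promoter sites, 2.21% of the coding promoter sites and 6.26% of the distal sites. Sites over 2000 bp made up 6.03%, 9.58% and 2.78%, respectively. To test these differences, the log2 ratio of the medians was taken on each of the 20 chromosomes and compared with 0 by flipping the signs of chromosomes in all possible ways (an exact two-sided permutation test with chromosomes as units). The smallest p this test can give is 1.91e-06. Against coding promoters the log2 ratio was -0.58 ± 0.29 (SD, n = 20 chromosomes) and below 0 on all of them (exact permutation p = 1.91e-06, the smallest possible; adjusted p = 4.45e-06 over 7 tests). Against distal sites it was 0.41 ± 0.27 and above 0 on 19 of the 20 chromosomes (exact permutation p = 3.81e-06, adjusted p = 6.68e-06). On the remaining chromosome, chromosome 8, both medians were 382 bp.

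**Figure D1:**
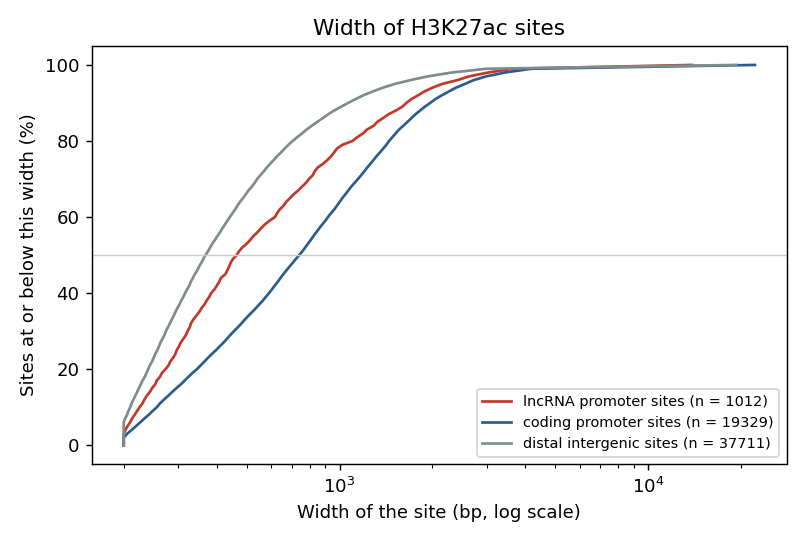
Share of sites (y axis, %) at or below a given width (x axis, bp, log scale) for the 1012 lncRNA promoter sites, the coding promoter sites and the distal intergenic sites. The lncRNA promoter curve runs between the others, with medians of 464.5, 740 and 368 bp where the curves cross the grey line.

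The widest sites belonged to lncRNA genes of different kinds. Neat1, the RNA that scaffolds nuclear paraspeckles, had a site of 13852 bp (chr19:5839491-5853342), which spanned its TSS and overlapped a CGI. Gm26651, with Gadd45g as its nearest coding gene, had a site of 10925 bp (chr13:51966810-51977734) with a CpG observed to expected ratio of only 0.176. Gm14005 had a site of 6401 bp, Bvht (Braveheart), an RNA of cardiac commitment, 5627 bp, C78859 5404 bp and Gm14321 4738 bp. All 6 of these sites covered a TSS, and 2 of them, at Neat1 and Gm14321, overlapped a CGI. C78859 lies within a protein-coding gene in the RefSeq annotation. The same was true of 36 of the 1012 sites (3.56%), while 665 (65.7%) had their middle in or within 1 kb of a RefSeq lncRNA gene. Those RefSeq genes were not matched to the GENCODE genes.

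CpG content separated the 3 kinds of site in the same order as width. The CpG observed to expected ratio, the number of CpGs in 1000 bp around the middle of a site relative to that expected from its C and G content, averaged 0.301 at lncRNA promoter sites, 0.562 at coding promoter sites and 0.190 at distal intergenic sites. The mean difference over chromosomes was -0.25 ± 0.07 (SD, n = 20) against coding promoters, below 0 on all 20, and 0.12 ± 0.07 against distal sites, above 0 on all 20. Both had an exact permutation p of 1.91e-06, the smallest possible, and an adjusted p of 4.45e-06. The X chromosome stood apart, with a mean ratio of 0.542 over only 15 lncRNA promoter sites compared to 0.163 at its distal sites. Of these 15 sites, 4 belonged to Ftx and 1 to Jpx, non-coding genes of the X-inactivation centre, with ratios between 0.540 and 0.763. Without the X chromosome the pooled difference against distal sites was 0.107, compared to 0.111 with it.

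**Figure D2:**
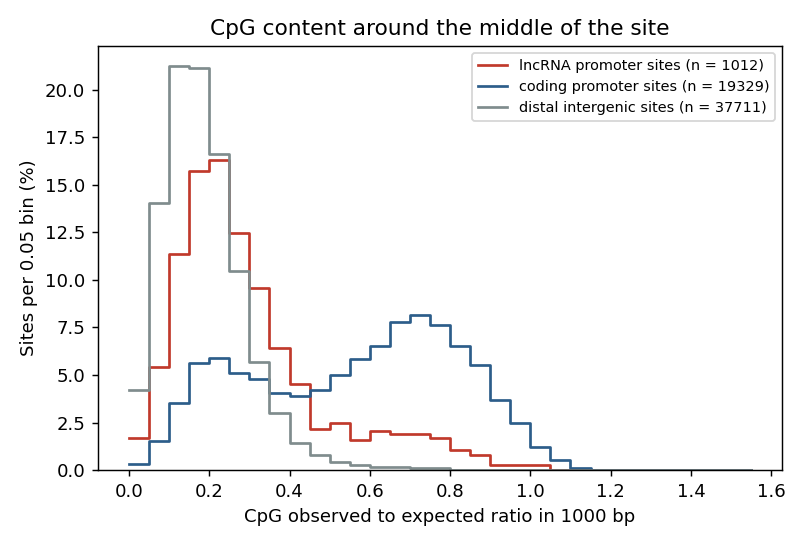
Share of sites (y axis, %) per 0.05 bin of the CpG observed to expected ratio in 1000 bp (x axis) for the 3 kinds of site. Most lncRNA promoter sites (mean 0.301) lie near the distal sites (mean 0.190), with a low tail that reaches the range where coding promoter sites (mean 0.562) are most frequent.

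A CGI was overlapped by 109 of the 1012 sites (10.8%, 95% Wilson interval 9.01 to 12.8). This share was 57.7% at coding promoter sites and 0.724% at distal sites. These intervals cover counting error only, and neighbouring sites are not independent. GC content averaged 50.2%, 55.4% and 48.0% in the same order. Soft-masked repeats covered 15.5% of the lncRNA promoter sites on average, 11.5% of coding promoter sites and 22.2% of distal sites. The difference from distal sites was -7.27 ± 3.37 percentage points over 20 chromosomes (exact permutation p = 3.81e-06, adjusted p = 6.36e-06). This test was among 10 comparisons added after the first results, over which its p was adjusted. The tests below on sites without a CGI, on covered TSSs, on sites within 10 kb, and on the CpG ratio and coding distance of lncRNA genes belong to the same 10.

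The highest CpG ratios were found at Gm27017 (1.03), Mir17hg (1.02), Gm20732 (1.02) and AL805899.1 (0.990). All 4 sites covered the TSS, overlapped a CGI and were between 1549 and 2451 bp wide. The lowest ratios were found at Gm38477 (0, a site of 212 bp with 90.1% repeats), Gm47134 (0.0180), 7630403G23Rik (0.0228) and Gm11216 (0.0237). None of these 4 sites covered the TSS or overlapped a CGI, and their widths were between 200 and 318 bp.

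The 109 sites with a CGI had a median of 928 bp and coding promoter sites with a CGI one of 1008 bp, a difference that was not tested. For the 903 sites that overlapped no CGI the median was 438 bp. Compared to distal sites without a CGI (367 bp) they were wider, with a log2 ratio of 0.32 ± 0.25 that was above 0 on 17 of 20 chromosomes (exact permutation p = 5.72e-05, adjusted p = 8.17e-05). Coding promoter sites without a CGI had a median of 418 bp. A wider site overlaps a nearby CGI more often, and sites with a CGI made up 57.7% of coding promoter sites, 10.8% of lncRNA promoter sites and 0.724% of distal sites, so that leaving them out removed wide sites mainly from the coding class. No order of lncRNA and coding promoter sites is therefore read from these medians. Among sites that overlapped no CGI, the CpG ratio averaged 0.254 at lncRNA promoters, 0.334 at coding promoters and 0.187 at distal sites. At lncRNA promoters it lay between those of the other classes. It was above distal sites on all 20 chromosomes (exact permutation p = 1.91e-06, the smallest possible, adjusted p = 4.77e-06). It was above coding promoter sites on 1 (exact permutation p = 3.81e-06, adjusted p = 6.36e-06). The ratio is part of the definition of a CGI, and its window of 1000 bp can reach a CGI beside a narrow site. A site of Dubr, 215 bp wide, overlapped no CGI and had a ratio of 0.720. No order of CpG content apart from CGIs is therefore read from these values.

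Motifs were counted in 300 bp around the middle of each site, on both strands, as a description without a test. The AP-1 motif TGANTCA, bound by the Fos and Jun proteins, was present in 136 lncRNA promoter sites (13.4%, 95% Wilson interval 11.5 to 15.7), in 6.44% of coding promoter sites and in 14.7% of distal sites. The GC box GGGCGG, bound by Sp1 and related factors, was present in 13.8%, 33.7% and 4.78%, respectively. CCAAT was found in 30.4%, 23.6% and 34.5%, and TATAAA in 10.5%, 6.46% and 13.2%. Of the lncRNA promoter sites with a CGI, 52.3% held a GC box and 5.50% an AP-1 motif, whereas 9.19% and 14.4% of those without a CGI did. GGGCGG itself contains a CpG, and CpG content is part of the definition of a CGI.

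Relative to the nearest annotated TSS, lncRNA promoter sites were less tightly placed than coding promoter sites. The TSS itself lay within 481 of the 1012 sites (47.5%) and within 61.8% of coding promoter sites. The difference was -13.9 ± 5.99 percentage points and below 0 on all 20 chromosomes (exact permutation p = 1.91e-06, the smallest possible; adjusted p = 4.77e-06). Sites at lncRNA promoters were also narrower, and a narrower site covers a given point less often. Coding genes had a mean of 4.28 annotated TSSs and intergenic lncRNA genes 1.39. A coding promoter site thus had more TSSs to lie near or cover. The parts of width and of TSS number in the differences of position were not tested. The middle of the site lay within 200 bp of the TSS in 31.8% of lncRNA and 34.4% of coding promoter sites, and over 500 bp away in 38.3% and 25.3%. It lay downstream of the TSS in 53.2% and 59.0%. Sites that covered the TSS had a median width of 826 bp and those that did not 335 bp. Since all sites have their middle within 1 kb of a TSS, width decides in large part which of them cover it, and these medians are given as a description. An exon of a lncRNA was overlapped by 622 sites (61.5%). A TSS of another kind of non-coding gene or a pseudogene lay within 1 kb of 57 sites, most often a processed transcript (15), a microRNA (9) or a transcript still to be tested experimentally (9).

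**Figure D3:**
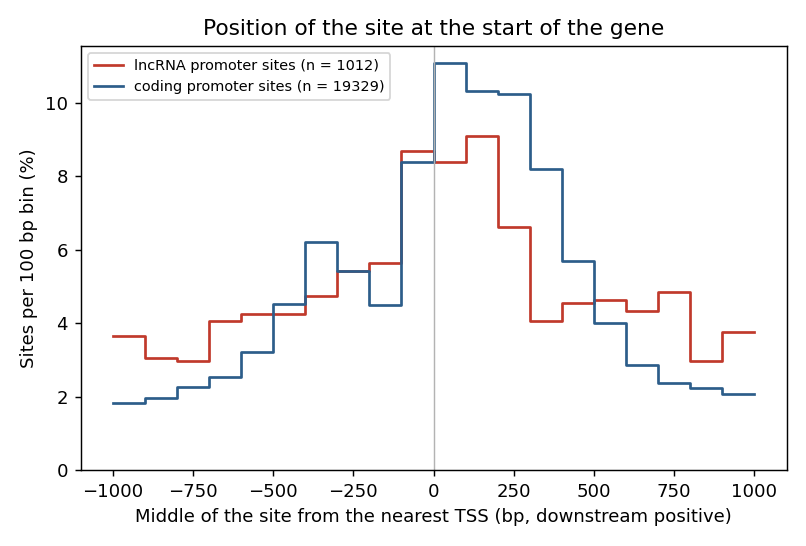
Position of the middle of the site relative to the nearest TSS (x axis, bp, downstream positive) as the share of sites per 100 bp bin (y axis, %), for lncRNA and coding promoter sites. The lncRNA promoter profile is flatter, with 38.3% of sites over 500 bp from the TSS compared to 25.3% at coding promoters. Coding genes have more annotated TSSs for a site to lie near, and this was not matched.

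Counted by gene, 701 of 4462 intergenic lncRNA genes (15.7%, 95% Wilson interval 14.7 to 16.8) had the middle of a site within 1 kb of one of their intergenic TSSs. Within 1 kb of any of their annotated TSSs, 11908 of 21755 protein-coding genes had a site, a background of 54.7%. Coding genes had a mean of 4.28 TSSs and these lncRNA genes 1.39, so the shares of the 2 kinds of gene are not matched for TSS number. Among the lncRNA genes with a CGI within 1 kb of a TSS, 101 of 170 had a site (59.4%), and among those without one, 600 of 4292 (14.0%). The coding genes had a site in 80.4% and 18.8% of cases, respectively. The mean CpG ratio at the TSS was 0.328 in lncRNA genes with a site and 0.240 in those without, higher on all 20 chromosomes (exact permutation p = 1.91e-06, the smallest possible; adjusted p = 4.77e-06). The ratio was the highest over the TSSs of a gene, and genes with a site had more TSSs (a mean of 1.65 compared to 1.34). The part of this in the difference was not tested.

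The share of lncRNA genes with a site rose with the CpG ratio at the TSS, from 6.53% (34 of 521) below 0.1 to 68.9% (31 of 45) at 0.8 and above. Below a ratio of 0.2, lncRNA genes had a site more often than coding genes. Between 0.1 and 0.2 the shares were 12.3% (10.7 to 14.2) and 5.34% (4.55 to 6.26). Between 0.2 and 0.3 they were 15.5% (13.6 to 17.6) and 12.7% (11.3 to 14.2), and these intervals overlap. From 0.3 upwards, lncRNA genes had a site less often. Between 0.5 and 0.6 the shares were 25.6% (18.8 to 33.7) and 60.6% (58.2 to 63.0), and between 0.6 and 0.8 they were 42.6% (34.2 to 51.5) and 78.6% (77.5 to 79.6). These are Wilson intervals and the crossing itself was not tested. Coding genes had a mean of 4.28 annotated TSSs and intergenic lncRNA genes 1.39, and this was not matched.

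**Figure D4:**
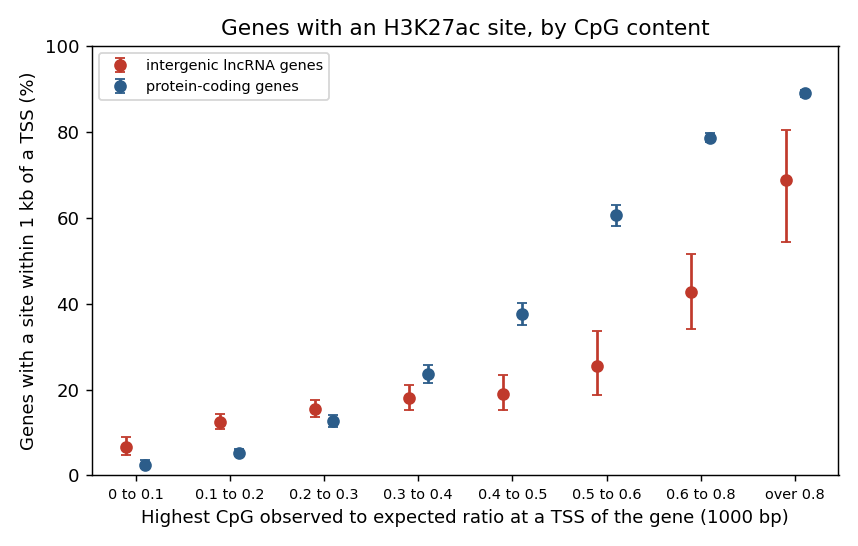
Share of genes with a site within 1 kb of a TSS (y axis, %, with 95% Wilson intervals) by the highest CpG observed to expected ratio at a TSS of the gene (x axis), for intergenic lncRNA genes and protein-coding genes. In lncRNA genes the share goes from 6.53% to 68.9%, above that of coding genes in the CpG-poor bins and below it in the CpG-rich bins.

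The 1012 sites had 681 different lncRNA genes as their nearest lncRNA gene. This number is below 701 because a site near the TSSs of several genes was assigned to the nearest. Of these genes, 431 had 1 site, 187 had 2, 53 had 3 and 10 had at least 4. Of the 250 genes with 2 or more sites, 194 (77.6%) had sites both upstream and downstream, each measured from its own nearest TSS. Sites of 1 gene can have different nearest TSSs, so they need not flank a single start. In 42 genes (16.8%) both sides were occupied in this sense and no site covered its nearest TSS. Pvt1, the non-coding gene next to Myc, had the most with 8 sites, spread over several alternative TSSs between 51693 and 235694 bp from the TSS of Myc. Their widths were between 260 and 3154 bp, and the widest overlapped a CGI at the first promoter. 4930471E19Rik, AC163629.2, Gm35333 and Gm47708 had 5 sites each, and Malat1, Ftx and Wincr1 had 4 each.

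Among lncRNA genes of known function, Malat1, an abundant RNA of nuclear speckles, had 4 sites between 710 and 1268 bp wide. The 2 that covered a TSS lay at annotated TSSs inside the gene. The sites beside its 5′ end, 928 and 740 bp wide, did not cover the TSS there. The small nucleolar RNA host genes Snhg6, Snhg12 and Snhg20 each had a site with a CGI over the TSS, of 1417, 2290 and 1723 bp. Lncpint, a target of p53, had 3 sites, the widest of 3275 bp with 205 CpGs. Trp53cor1, another p53 target, had a site of 1221 bp without a CGI whose middle lay 739 bp downstream of a TSS and 12536 bp from the TSS of Cdkn1a, which encodes the cell-cycle inhibitor p21. The microRNA host gene Mir670hg had 2 sites of 762 and 666 bp at TSSs far apart, and neither overlapped a CGI. Mirg, of the imprinted Dlk1-Dio3 region, had 2 sites of 204 bp each, close to the lower limit of the list. Rmst, a gene of neural differentiation, had a site of 1096 bp with a ratio of 0.671 and no CGI. Wincr1 had 4 CpG-poor sites with ratios between 0.116 and 0.223.

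The sites were seldom alone. Another site of the list lay less than 1 kb away from 74.7% of lncRNA promoter sites, 69.8% of distal sites and 70.5% of coding promoter sites. The difference from distal sites was 5.32 ± 8.35 percentage points over 20 chromosomes and above 0 on 17 (exact permutation p = 0.00527, adjusted p = 0.00615). It did not hold in each setting: with lncRNA promoters limited to 500 bp around the TSS the pooled difference fell from 4.87 to 1.64 points (exact permutation adjusted p = 0.308), and without the narrowest 25% of all sites it was 2.11 points (adjusted p = 0.333). Within 10 kb there were 4.36 other sites on average, compared to 4.39 around distal sites (exact permutation p = 0.875). No other site within 10 kb was found for 104 sites (10.3%) and for 12.2% of distal sites.

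When sites less than 1 kb apart were joined into regions, 695 regions held at least 1 lncRNA promoter site, of which 256 were single sites and 99 had 5 or more. These regions contained 935 other sites. The largest, of 25 sites, held the wide site of Gm14005. Neat1 and Malat1 lay in a single region of 22 sites, and the first promoter of Pvt1 in a region of 21. Wincr1 lay in a region of 19. Regions of 5 or more sites held 20.2% of lncRNA promoter sites, 20.6% of distal sites and 11.5% of coding promoter sites. Large regions were thus not particular to lncRNA promoter sites.

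Counting only the lncRNA promoter sites, 694 (68.6%) had another of them less than 100 kb away. Joined at this distance, the 1012 sites formed 573 stretches, of which 318 held a single site and 25 held at least 5. Sites of the same lncRNA gene count as neighbours here, and only 431 of 681 genes had a single site. No such counts were made for another class of site, so no clustering particular to lncRNA promoters follows from them. The stretches with most sites were a 148 kb stretch of chromosome 10 around Gm47708 with 8 and Pvt1 with 8. A stretch of chromosome 17 (chr17:83916820-84080128) held 7 sites at 5 lncRNA genes, with Haao and Zfp36l2, an mRNA-destabilising factor, as the nearest coding genes. Malat1 and Neat1 together had 6 in 57.5 kb. In 87 stretches at least 2 lncRNA genes took part. Chromosome 13 had the most sites (93, 1.48% of its list), and the share was highest on chromosome 17 (1.49%) and lowest on chromosome 11 (0.532%). The share of intergenic lncRNA genes with a site was between 6.74% on the X chromosome (6 of 89 genes) and 23.0% on chromosome 17 (45 of 196).

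The nearest coding TSS was a median of 62561.5 bp from the lncRNA promoter sites and 62414 bp from distal intergenic sites. The log2 ratio of medians was -0.08 ± 0.42 over 20 chromosomes and above 0 on 8, a difference smaller than the spread between chromosomes (exact permutation p = 0.438). This depended on the setting. The pooled ratio of 1.00 became 0.907 for sites over 10 kb from coding TSSs (exact permutation adjusted p = 0.0437) and 0.869 with other long non-coding gene types added (adjusted p = 0.0161), and it was 1.08 against distal sites outside all annotated genes (adjusted p = 0.968). In 64 sites (6.32%) the distance was 5 to 10 kb, in 366 (36.2%) 10 to 50 kb, in 238 (23.5%) 50 to 100 kb and in 344 (34.0%) over 100 kb. The farthest was Gm13470, whose sites lay 1324678 and 1325943 bp from Zeb2, a repressor of epithelial genes. Gm29137 (807502 bp from Tbl1xr1), Gm11751 (806189 bp from Brinp1) and Gm6634 (800678 bp from Otol1) followed. Just inside the limit of 5 kb were Gm28199 (5037 bp from Rab17), AC132404.1 (5123 bp from Itpr3) and Gm20005 (5200 bp from Hsph1). Just outside were sites at Gm49782 (4905 bp from Suox), Gm14902 (4826 bp from Gdpd2) and 9530020I12Rik (4821 bp from Msgn1). The widths were 784, 405 and 697 bp inside and 363, 958 and 638 bp outside.

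The nearest coding gene lay in the same orientation as the lncRNA gene in 353 of 681 cases (51.8%). It was in divergent orientation in 212 (31.1%) and in convergent orientation in the other 116. No such counts are given for lncRNA genes without a site, so nothing particular to genes with a site follows from them. LncRNA genes with a site lay closer to a coding TSS than those without, with medians of 56398 and 76451 bp. The distance was the smallest over the intergenic TSSs of a gene, and that TSS need not be the one with the site. Genes with more TSSs can reach a smaller distance, and the part of this was not tested. The log2 ratio was -0.41 ± 0.47 and above 0 on only 4 of 20 chromosomes (exact permutation p = 0.000969, adjusted p = 0.00121). Both groups had a median of 3 exons. They differed in other features of the annotation, which were not tested. The lncRNA genes with a site had a mean of 1.65 annotated TSSs and those without 1.34, 30.0% and 22.0% had more than 1 transcript, and their median spans were 9616 and 8103 bp.

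Coding genes next to a lncRNA gene with a site more often had a promoter site of their own. This held for 533 of 701 lncRNA genes with a site (76.0%, 95% Wilson interval 72.7 to 79.0) and for 2277 of 3761 without (60.5%, 59.0 to 62.1), compared to the background of 54.7% over all coding genes. The difference was 14.2 ± 10.5 percentage points over chromosomes and above 0 on 18 of 20 (exact permutation p = 5.53e-05, adjusted p = 7.74e-05). It was present at each distance. With the coding TSS 5 to 20 kb away the shares were 77.0% (69.3 to 83.2) and 55.9% (52.1 to 59.7), and over 100 kb away 74.2% (68.1 to 79.5) and 62.3% (59.9 to 64.6).

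**Figure D5:**
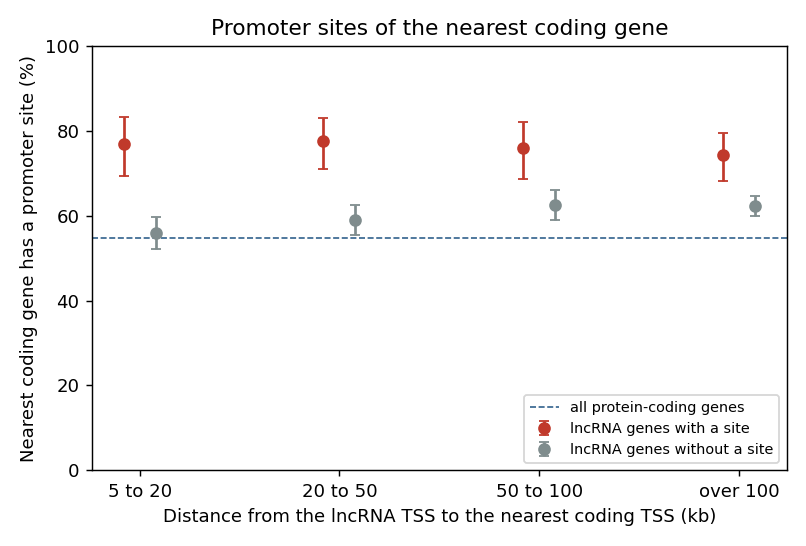
Share of lncRNA genes whose nearest coding gene has a promoter site (y axis, %, with 95% Wilson intervals) by distance to the nearest coding TSS (x axis, kb), for lncRNA genes with and without a site. The dashed line is the share over all protein-coding genes (54.7%), and the lncRNA genes with a site lie above those without in each of the distance bins.

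The lncRNA promoter sites had 578 different protein-coding genes as their nearest coding gene, 2.66% of all coding genes. Of these, 436 (75.4%) had a site at their own promoter, compared to 54.7% of all coding genes. Myc, the transcription factor that drives growth, had the most with 9 sites at Pvt1 and Gm41333. Gm26897 followed with 8, Hs6st1 with 7 and Klf6 with 7. Lists of genes of fibroblast biology were looked up, and they are described by counts without a test. The shares can be read beside the 2.66% of all coding genes, but nothing particular to the lists follows from them. Most listed genes had a promoter site of their own, counted whether or not they were nearest to a lncRNA promoter site. This held for 85.7% of the AP-1 and serum-response factors and 92.1% of the growth factor and TGF-beta signalling genes. It also held for 81.8% of the matrix and adhesion genes and 76.9% of the mesenchymal and limb transcription factors.

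Among 21 AP-1 and serum-response factors, 5 were nearest to a site (23.8%), with 19 sites. Besides Myc these were Klf6, with 7 sites at 3 lncRNA genes from 21534 to 222727 bp away, Atf3 (D730003I15Rik, 6606 bp away, a site of 2005 bp), Ier3 and Klf10, all with a promoter site of their own. Among 38 genes of growth factor and TGF-beta signalling, 11 were nearest to a site (28.9%), with 25 sites. Tgfbr2, a receptor of TGF-beta, had 6 sites at 3 lncRNA genes, the nearest 13869 bp away. Bmp4, a secreted ligand of the same family, had 5 sites, and Inhba, which encodes an activin subunit, had 3 over 203618 bp away. Smad6, an inhibitor of BMP signalling, had 2, the wider of 3492 bp at Gm36033. The cytokine gene Lif had Gm11959 6564 bp away with a site of 2301 bp, and Hbegf had a site of 955 bp 5959 bp away. Fgfr1, Vegfa, Ccn2 and Id4 had 1 site each and Id2 had 3.

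Among 33 matrix and adhesion genes, 5 were nearest to a site (15.2%), with 20 sites. Col12a1, a collagen gene, had 6 sites at 4 lncRNA genes. Thbs1, which encodes thrombospondin, had 5 at 3 lncRNA genes, between 289280 and 308914 bp away, the widest of 2617 bp. Fn1, which encodes fibronectin, had 4, the widest of 2437 bp at Gm8883. Tnc, which encodes tenascin C, had 2 CpG-poor sites at Gm11216. Cdh11, a mesenchymal cadherin, had 3 sites at Gm32531 and was the only gene named from these lists without a promoter site of its own. Most genes of each whole list had one as well, so nothing particular to the named genes follows. Among 52 mesenchymal and limb transcription factors, 7 were nearest to a site (13.5%), with 13 sites. Nr2f2 had 5 sites at 4 lncRNA genes, the nearest 6934 bp away. Sox9, the regulator of cartilage formation, and Zeb2 had 2 each at a single lncRNA gene, 674198 bp or more away. Tbx3, Sox4, Nr2f1 and Meis1 had 1 each, between 200 and 327 bp wide.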

How the data were processed

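H3K27ac ChIP-seq had been carried out in 12 libraries, with 2 input libraries. The authors used Trim Galore for trimming and BWA for alignment to mm10, merged replicates, called narrow peaks with MACS and deposited the sites of all samples as positions only, in no other unit (chromosome, start and end in bp). How peaks were joined is not given in the sources used here, so a width may exceed that in any sample. Starts were read as counted from 0, and printed positions count from 1. Changed sites and read counts were not analysed here.

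Genes were those of GENCODE M21 and sequence was RefSeq GRCm38.p6, both of the build used by the authors, who named a later GENCODE release. Another release can change which sites count as lncRNA promoter sites. CGIs were runs of CpGs in repeat-masked sequence (at least 200 bp, GC at least 50%, ratio at least 0.6). The main chromosomes (1 to 19 and X) held 16208 such CGIs. Classes were compared with two-sided exact sign-flip permutation tests over chromosomes with at least 5 sites of each class. Such p-values measure the spread between chromosomes in 1 list, not between libraries. They were adjusted after Benjamini and Hochberg, with 0.05 as the threshold. Procedures were tested on simulated data. Genes were named by rank (most sites, widest, extreme CpG ratio, farthest) or because they carry a given name, and some items are not reported here. The sites and gene lists were chosen with earlier results of these data known. Alternatives comprised other windows, distances, gene types, CGIs and sets of sites. Python 3.11.15, numpy 2.4.6, pandas 2.3.3, scipy 1.17.1, numba 0.67.0 and matplotlib 3.10.9 were used.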

Additional observations from a re-analysis of the deposited data

Results flagged for a closer look

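The list also held 57 sites on 15 sequences outside chromosomes 1 to 19 and X, which entered none of the comparisons. Their median width was 384 bp, from 200 to 2097 bp, and 26 of them lay on a single sequence. No control list was at hand and no expected number can be given, so they are reported only as data left out.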

How the results depend on the processing

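No paired analysis was possible because no site has a value for any library. Of 78 alternatives computed, 5 of them chosen after seeing the data, 65 kept both the direction and the side of the threshold, or stayed within 1.5 times the count or within the 95% interval of the share. Both width tests, both CpG tests and the test of the nearest coding genes were among these under all alternatives run. With a window of 500 bp there were 624 sites and with 2 kb 1620. The share of lncRNA genes with a site was 12.2% with 500 bp, 19.4% with 2 kb, 13.8% without the narrowest 25% of sites and 17.2% when any overlap with the window counted. The share of sites with a CGI was 7.47% with 2 kb and 5.34% with CGIs of at least 500 bp. The difference in close neighbours from distal sites fell to 1.64 points with 500 bp and to 2.11 points without the narrowest 25% of sites, and neither passed the threshold. The ratio of distances to the nearest coding TSS passed the threshold over 10 kb from coding TSSs (0.907, exact permutation adjusted p = 0.0437) and with other long non-coding types added (0.869, adjusted p = 0.0161), and turned to 1.08 with distal sites outside all annotated genes (adjusted p = 0.968). In its other alternatives the adjusted p was between 0.349 and 0.773. The cause was not tested. Read depth, and with it the chance that a weak site was missed, is unknown.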
